A study of Mus musculus with 6 samples.

Results

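The circular RNAs (circRNAs) described here are those that the deposited table of mouse brain places in its intronic class. A circRNA is a closed RNA ring, recognised in sequencing data by reads across a back-splice junction, where a downstream end is joined to an upstream one. Members were taken by the class column of the table alone, which gave 1580 intronic circRNAs of 18136 in all (8.71%). They held 6841 of the 190023 junction reads (3.60%). The libraries, 3 from A53T mice and 3 from WT (wild type) mice, were made from RNA labelled as brain after enrichment of circRNAs. A53T mice are a transgenic Parkinson disease model named for the mutation they carry. The sources used here do not give the driving promoter, age, sex or background strain of the mice, and the series text names the substantia nigra of the midbrain where the sample labels say brain. Whether each library came from its own animal is not stated, and every p-value below reflects the spread among these libraries, which may be technical.

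The A53T libraries held 29839 to 33313 junction reads, of which 1015 to 1332 were intronic, and the WT libraries held 25217 to 36390, of which 969 to 1281 were intronic. Levels are given as junction reads or as CPM, junction reads relative to the scaled library total. A read was worth 28.1 to 38.7 CPM, and a count of 0 in a library allows up to 3 reads, or 84.3 to 116 CPM, for counting error only. Junction reads count junctions and not bases, so they were not divided by length. Whether junctions of short and long circles are detected equally well was not tested. circRNAs of all 6 neuron marker genes chosen for this work were read, with 578 to 615 reads per library in A53T and 504 to 807 in WT. These genes were Rbfox3, Snap25, Syt1, Rims1, Rims2 and Map2. Exonic circRNAs of Rims1 and Rims2 held 1433 and 1673 reads over all libraries, while Snap25 had 0 exonic circRNAs and 1 intronic one with 2 reads. The marker reads depend on which genes were picked and do not measure cell content. Of the markers of other brain cells, 2 of 5 astrocyte, 1 of 5 oligodendrocyte and 0 of 4 microglia genes had a circRNA. The astrocyte markers held 3 to 7 reads per library in A53T and 0 to 5 in WT, the oligodendrocyte markers 0 to 2 in A53T and 0 in WT. Markers at 0 included Aqp4, Gfap and Gja1 of astrocytes, Mbp, Mobp and Opalin of oligodendrocytes, and all of the microglia list (Csf1r, Cx3cr1, Itgam and P2ry12).

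Intronic circular RNAs can form when the lariat that splicing cuts out of a pre-mRNA escapes debranching and its tail is trimmed, and such circles tend to stay in the nucleus. A table can also call a circle intronic because it starts or ends at a splice site inside an intron that the annotation does not list. Many neuronal genes have long introns. A junction read reveals where a circle closes and nothing of its interior, so inner sequence and length are predictions. For all 1580 intronic circRNAs the predicted length equalled the genomic span. The same held for 100% of the sense overlapping, antisense and intergenic circRNAs, the other classes of the table, and for 6.61% of exonic ones.

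The class label was checked against the ends of the exonic circRNAs in the same table, which mark exon boundaries in the same genome build. In 60 of the 1580 intronic circRNAs (3.80%) 1 end was also an end of an exonic circRNA on the same strand, and 0 had both ends shared. The shared end was the splice donor side in 31 and the acceptor side in 29. Counting also those with such an exon boundary inside their span, 91 (5.76%) held or touched an exon boundary, so the label intronic does not describe the whole of these circles. Over 1000 nt this was so for 77 of 423 circRNAs (18.2%), and at 150 to 200 nt for 1 of 606 (0.165%). On the same strand, 226 of the 1580 (14.3%) lay inside the span of an exonic circRNA, and 103 (6.52%) shared an end with another intronic circRNA. For the other circRNAs the table holds no exon boundary at the junction, which does not show that they lie in introns only.

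The exon side of the junction is shown for 4 abundant intronic circRNAs that use an exon boundary, because it is the part of their sequence that the reference transcripts hold. The sequences are the 20 nt of the exon next to the junction, 5′ to 3′, from GENCODE M21 transcripts of the build GRCm38, with the 8 nt at the junction in capitals.
Crebrf, last bases of exon 4 of 9 (coding): cgacacgttctcTGAACCAG
Klhl32, last bases of exon 6 of 7 (non-coding transcript): gtgaggagcagaTCTGGCAG
Cntn5, first bases of exon 2 of 23 (coding): ATTACTCTgaagctctctct
Gm53013, last bases of exon 6 of 7 of Cdr1os (non-coding transcript): ctggtgtctgccGTATCCAG
In Crebrf, Klhl32 and Gm53013 the exon lends its donor end and in Cntn5 its acceptor end, and the opposite end of each circle matched no exonic circRNA.

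The Bcl11b circle missed an exon boundary by 3 nt. Bcl11b encodes a zinc finger transcription factor of neurons and T cells. The donor end of its circle (chr12:107955724-107956086, minus strand, mm39) was that of exon 2 of 4, and the acceptor end lay 3 nt inside the same exon, so it was 363 nt long where the exon is 366 nt. The first 20 nt of the exon, which are coding, are shown with the 3 skipped bases in capitals.
Bcl11b, first bases of exon 2: CAGaggctgaccatgtggag
Both ends of this circle lie in or at the exon. It had 22 reads, against 52 of an exonic circRNA with the same donor end. In all, 4 intronic circRNAs had both ends within 10 nt of exonic circRNA ends.

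Intronic circRNAs were mostly short. Their median predicted length was 243 nt (interquartile range 176 to 1168 nt), against 582 nt (366 to 970 nt) for the 13133 exonic circRNAs. A total of 606 (38.4%) were 150 to 200 nt long, against 450 exonic circRNAs (3.43%) in the same range. The shortest intronic circRNA had 150 nt, which is also the length of the sequencing reads per the labels, and 16 had exactly that length. Below 150 nt there were 0 intronic and 78 exonic circRNAs. At the other end, 194 intronic circRNAs (12.3%) were longer than 5000 nt, up to 98140 nt, against 211 exonic ones (1.61%).

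**Figure D1:**
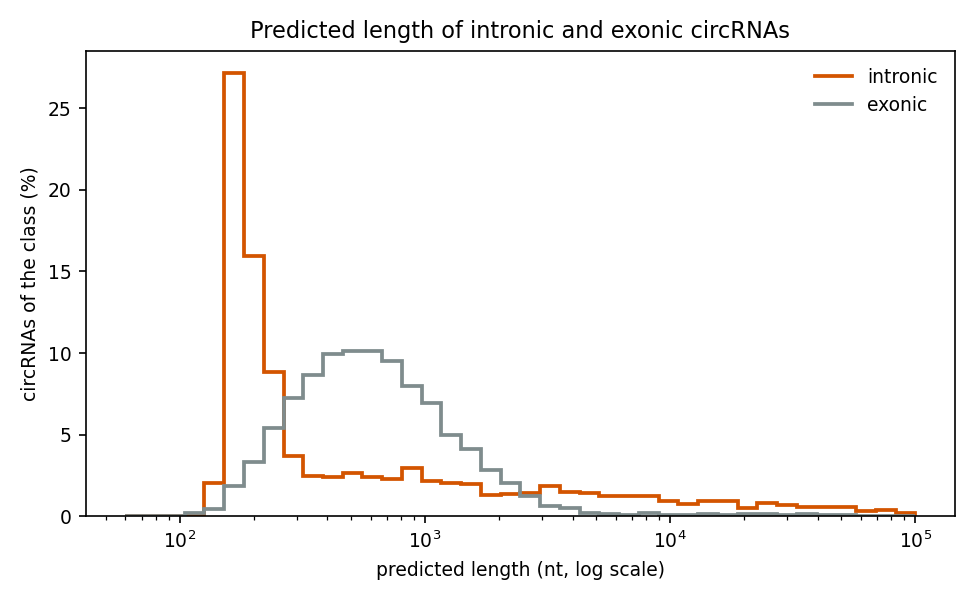
Predicted length (x axis, nt, log scale) against the percent of circRNAs of the class in each bin (y axis), for 1580 intronic and 13133 exonic circRNAs. The intronic class peaks just above its lower limit, at 27.1% in the bin from 152 to 183 nt, and has a long tail, while the exonic class peaks near its median of 582 nt.

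Within each library, the intronic circRNAs with at least 2 reads had a lower median length than the exonic ones. The medians were 250 to 328 nt for intronic and 545 to 582 nt for exonic circRNAs over the 6 libraries. The mean difference was -1.04 on the log2 scale (SD 0.12, n = 6; lower in 6 of 6 libraries; exact sign-flip test, two-sided, p = 0.0312, the smallest that 6 pairs allow). Class and length are fixed for each circRNA, so this p-value shows only how stable the difference was over the libraries. Among circRNAs with at least 5 reads in a library the order turned round, with a mean of the library medians of 1966 ± 1183 nt for intronic and 557 ± 13.2 nt for exonic circRNAs (SD, n = 6), intronic ones longer in 5 of 6 libraries (exact sign-flip p = 0.0625). Only 14 to 38 intronic circRNAs per library had that many reads. Of the 606 intronic circRNAs of 150 to 200 nt, the one with the most reads had 26.

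Most intronic circRNAs rested on very few reads. In all, 970 (61.4%) had 2 reads over the 6 libraries together, against 25.3% of exonic circRNAs. They were read in 1 library only in 1427 cases (90.3%), against 40.7% of exonic circRNAs, and 19 (1.20%) were read in all 6, against 11%. The share read in 1 library only was 69.55% for sense overlapping, 78.0% for antisense and 75.2% for intergenic circRNAs. The 19 intronic circRNAs read in all 6 libraries held 34.7% of all intronic reads. A circRNA with at least 2 reads in a library had 3.80 ± 0.26 reads there in the intronic class and 6.08 ± 0.26 in the exonic class (SD, n = 6), a mean difference of -0.68 on the log2 scale that was lower in 6 of 6 libraries (exact sign-flip test, two-sided, p = 0.0312). Among circRNAs with at least 5 reads in a library this order turned round too, with 19.4 ± 4.63 reads for intronic and 14.03 ± 0.61 for exonic circRNAs (SD, n = 6), intronic ones higher in 5 of 6 libraries (exact sign-flip p = 0.0625). Of the 14 to 38 intronic circRNAs per library that reached 5 reads, 1 was the circle of Tulp4, with 176 to 287 reads. With the reads of that circle left out, the intronic mean lies below the exonic one in each of the 6 libraries. The turn in reads therefore rests on 1 circle, and no test was run without it.

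Intronic circRNAs were also read again in another library less often than exonic ones with the same count. Of the intronic circRNAs with exactly 2 reads in a library, of which there were 149 to 230 per library, 11.6 ± 2.38% had a read in at least 1 of the other 5 libraries. For exonic circRNAs with 2 reads, 1382 to 1748 per library, it was 66.2 ± 2.48% (SD, n = 6). The difference of -54.6 percentage points (SD 2.33) had the same sign in 6 of 6 libraries (exact sign-flip test, two-sided, p = 0.0312). The value of each library is made from the reads of the other 5, so the 6 values are not independent. This p-value therefore shows no more than how stable the difference was over the libraries. This comparison was chosen after the data had been seen. Length moved with it in the intronic class: the share was 1.62 ± 1.60% at 150 to 200 nt, 17.4 ± 3.08% over 200 nt and 28.1 ± 2.81% over 1000 nt. The exonic shares at those lengths were 63.1 ± 8.47%, 66.2 ± 2.47% and 61.2 ± 5.38%. In the range of 150 to 200 nt, 598 of 606 intronic circRNAs (98.7%) were read in 1 library only, against 41.8% of exonic ones, and over 5000 nt it was 70.6% against 31.3%.

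**Figure D2:**
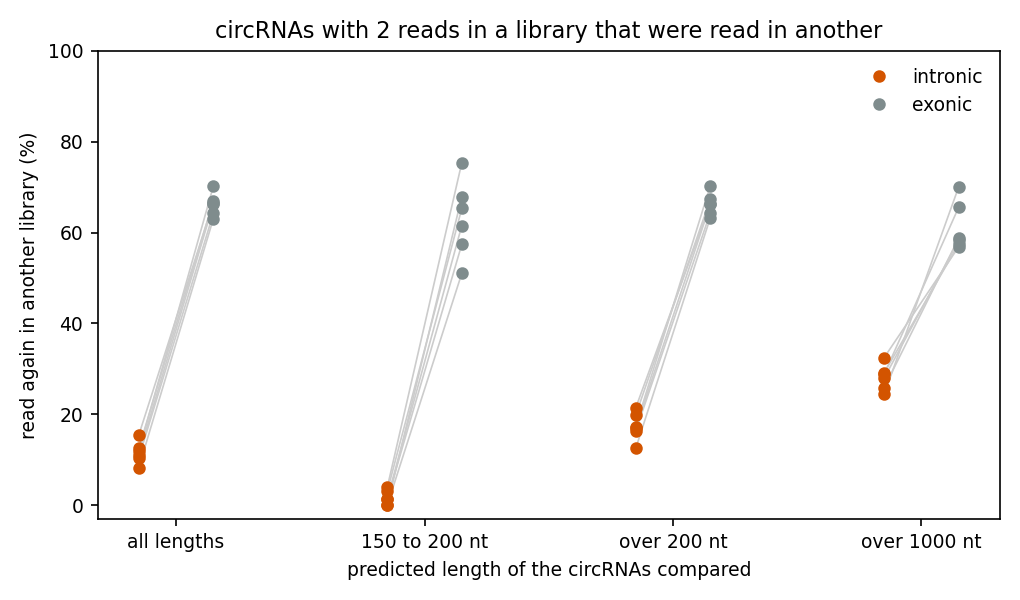
Percent of circRNAs with exactly 2 reads in a library that had a read in at least 1 other library (y axis), for 4 ranges of predicted length (x axis). Each point is a library and grey lines join the intronic and exonic value of the same library; the intronic value is the lower one in every library and range shown.

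A handful of intronic circRNAs carried much of the signal. The 8 with the most reads held 31.2% of the intronic reads, and the 47 with at least 10 reads held 40.9%. By far the most abundant was the circle of Tulp4, a gene for a tubby-like protein with a SOCS box (chr17:6187486-6189431, plus strand, mm39, 1946 nt). It had 237, 287 and 225 reads in the A53T libraries and 229, 248 and 176 in the WT libraries, 20.5% of all intronic reads. The groups overlapped. Its host had 4 exonic circRNAs with 26 reads together, so 98.2% of the intronic and exonic reads of Tulp4 were intronic. The second was a 1612 nt circle of the predicted gene Gm21992 (chr19:4842426-4844037, minus strand), with 64, 64 and 87 reads in A53T and 68, 55 and 58 in WT. Gm21992 had 7 intronic circRNAs with 477 reads and 0 exonic ones.

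The next circles were less abundant, with at most 125 reads in all. An 888 nt circle of Kazn, which encodes kazrin, a protein of cell junctions and the cytoskeleton, lay at chr4:142137768-142138655 on the minus strand. It had 30, 30 and 7 reads in A53T and 17, 22 and 19 in WT, with A53T replicate 3 below all other libraries. The 6316 nt Crebrf circle (chr17:26955790-26962105, plus strand), of a gene for a regulator of CREB3 transcription factors, had 23, 7 and 12 reads in A53T and 5, 12 and 13 in WT. It used the donor end of exon 4 shown above, which 3 exonic circRNAs of Crebrf with 797 reads used too. Upp2, a uridine phosphorylase gene, gave a 7821 nt circle (chr2:58517093-58524913, plus strand) with 7, 6 and 11 reads in A53T and 10, 1 and 3 in WT. For both of these the groups overlapped.

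The longest of the well-read intronic circRNAs came from Erc2, an active zone gene of the presynaptic terminal (chr14:28039206-28106000, plus strand, 66795 nt). It had 5, 9 and 5 reads in A53T and 5, 6 and 5 in WT, nearly even over the libraries. Its span held an end of an exonic circRNA, 65 nt from its start, so it is not intronic throughout. A second circle of Gm21992 (chr19:4837389-4844037, minus strand, 6649 nt) had 2, 5 and 2 reads in A53T and 1, 19 and 4 in WT, where WT replicate 2 stood apart. The Klhl32 circle, of a kelch-like gene (chr4:24682055-24693634, minus strand, 11580 nt), had 11, 6 and 4 reads in A53T and 4, 6 and 1 in WT. It was 1 of 4 intronic circRNAs with a database identifier, against 257 of 13133 exonic ones.

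**Figure D3:**
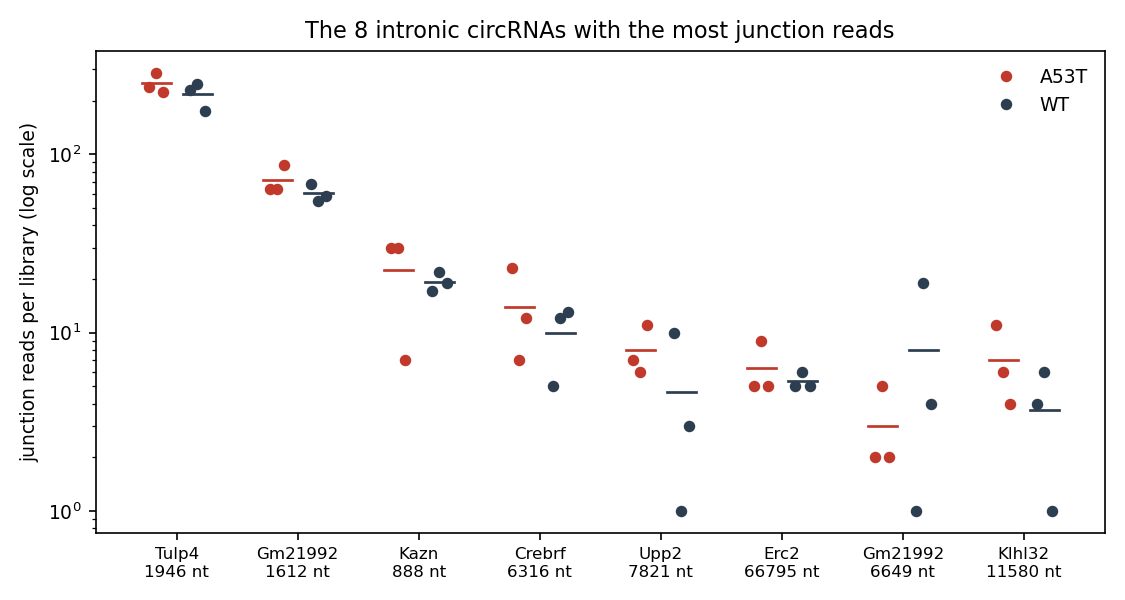
Junction reads per library (y axis, log scale) of the 8 intronic circRNAs with the most reads, named by host gene and predicted length (x axis). Points are the 3 A53T and 3 WT libraries and bars are group means; the groups overlap in all 8.

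Several abundant intronic circRNAs came as families with a common end. The 888 nt circle of Kazn and a 1160 nt one shared their donor end and had 125 and 26 reads. In Gm21992, the 1612 nt circle shared its donor end with 2 others and its acceptor end with the 6649 nt circle. In Rbfox1, which encodes a splicing regulator of neurons, circles of 615 and 3445 nt shared a donor end, with 19 and 16 reads. The X-chromosomal circle of Gm53013 (chrX:60225156-60229780, plus strand, 4625 nt, 27 reads) ended at the donor end of the Cdr1os circle, an exonic circRNA with 5947 reads. It began 1698 nt upstream of the start of that circle. Its span therefore held the whole 2927 nt exon of Cdr1os, and it is not intronic throughout. The sources used here do not say whether counting used the strand, so reads of overlapping genes could not be told apart with certainty, and this holds for Gm53013 and Cdr1os. In all, 17 intronic circRNAs overlapped an exonic circRNA of another host on the same strand.

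Among circRNAs with at least 10 reads, the shortest were a 164 nt circle of Gm53013, a 177 nt circle of Meg3 and a 220 nt circle of Hs3st4, a heparan sulfate sulfotransferase gene. The Hs3st4 circle was read in all 6 libraries, with 3, 2 and 2 reads in A53T and 4, 1 and 1 in WT. The 177 nt circle of Meg3, an imprinted long non-coding RNA, had 2, 0 and 9 reads in A53T and 0, 13 and 2 in WT, most of them in 1 library of each group. The Gm53013 circle of 164 nt had 0, 4 and 0 reads in A53T and 1, 4 and 3 in WT. It lay inside the 2927 nt exon of the Cdr1os circle on the same strand, so the label intronic does not describe its place. The longest were the Erc2 circle above, a 37688 nt circle of Atxn1, the ataxin 1 gene, and a 35591 nt circle of Snhg14. Atxn1 had 3, 0 and 3 reads in A53T and 5, 6 and 0 in WT.

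The 1580 intronic circRNAs lay in 1066 named host genes, and 823 of these (77.2%) had 1 each. Of the hosts, 668 (62.7%) also had an exonic circRNA. The host transcript was protein coding for 1180 of the 1562 circRNAs whose transcript is in GENCODE M21. Meg3 had the most, 16 intronic circRNAs of 156 to 288 nt with 69 reads and 0 exonic ones, and 15 of the 16 were read in 1 library only. Kcnip4, a gene for a potassium channel interacting protein, had 13 with 46 reads, and 2 of its libraries, A53T replicate 3 and WT replicate 3, held 15 reads each. Csmd1, a complement regulator gene, had 12 with 28 reads beside 11 exonic circRNAs with 150 reads, and Rbfox1 had 11 with 57 reads beside 5 exonic ones with 42. Nefm, which encodes the medium neurofilament chain, had 9 with 28 reads and 0 exonic ones. Of these 9, 6 shared the donor end at position 68358083 of chromosome 14, and their acceptor ends differed. Their host sum was 16, 3 and 4 reads in A53T and 0, 5 and 0 in WT, with 16 of 28 reads in A53T replicate 1. The groups overlapped, and no Nefm circle reached the filter for testing.

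Gene groups of the brain contributed few intronic reads each apart from Tulp4. Intronic circRNAs were found in 19.7% of all 5414 hosts with any circRNA, 1066 of them. Every list here and below lay above that, from 25% for ubiquitin and proteasome genes to 75% for glial hosts. A share above 19.7% is therefore particular to no list, and the number of circRNAs per host was not matched. Among 28 postsynaptic genes, 16 of 26 with a circRNA had an intronic one, with 67 reads in A53T and 65 in WT, led by the scaffold genes Magi2 and Dlg2 (28 and 14 reads over all libraries) and including the glutamate receptor gene Grm5 (10 reads). Among 28 presynaptic genes it was 15 of 26, with 54 reads in A53T and 51 in WT, led by Erc2 with 40 reads, the neurexins Nrxn3 and Nrxn2 with 17 and 9, and Erc1 with 8. Of 28 ion channel genes 15 had intronic circRNAs, with 79 reads in A53T and 51 in WT, led by Kcnip4, the calcium channel gene Cacna1c with 18 reads, and the potassium channel genes Kcnd2 with 12 and Kcnma1 with 11. Reads of these lists were not tested as sums, and of their circRNAs only the 66795 nt circle of Erc2 passed the filter for testing. The list members were chosen with earlier results of these data known.

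Regulators of RNA and chromatin held fewer. Of 21 circRNA biogenesis and turnover genes with a circRNA, 8 had intronic ones, with 53 reads in A53T and 39 in WT, led by Rbfox1 with 57 reads and the splicing regulators Celf2, Mbnl1 and Rbfox2 with 12, 6 and 5. Of 28 chromatin and transcription genes 10 did, with 15 reads in A53T and 18 in WT, led by Ankrd11, Arid1b and Zeb1 with 7, 5 and 4. Among 28 ubiquitin and proteasome genes it was 7, and Tulp4 held 1407 of their 1419 reads, while the cullin genes Cul3 and Cul4a had 2 each. Of 10 non-coding hosts with a circRNA 5 had intronic ones, with 57 reads in A53T and 43 in WT, led by Meg3 and Snhg14 with 69 and 21 reads, then Malat1 with 5. Of 8 glial hosts with a circRNA 6 had intronic ones, with 18 reads in A53T and 16 in WT, led by Npas3 with 13 and the phosphatase gene Ptprz1 with 8.

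Of the Parkinson disease genes, 8 of 24 had a circRNA and 3 an intronic one, with 10 reads in A53T and 0 in WT. Among them were Dnajc6, which encodes the clathrin uncoating protein auxilin, and Vps13c, which encodes a lipid transfer protein. Dnajc6 had 4 reads, all in A53T replicate 3, and Vps13c had 3, all in A53T replicate 1. Each of the 3 circles was read in 1 library only, so this is no replicated difference.

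The design sets the A53T libraries against the WT libraries. As a class, intronic circRNAs took a share of the reads that overlapped between the groups. They made up 3.40, 3.73 and 4.00% of the junction reads in the A53T libraries and 3.16, 3.52 and 3.84% in the WT libraries, with means of 3.71 ± 0.30% in A53T and 3.51 ± 0.34% in WT (SD, n = 3 each). The difference of 0.20 percentage points had p = 0.5 in a two-sided exact permutation test, where 3 against 3 cannot go below 0.1. It was 0.027 without WT replicate 1, 0.056 without A53T replicate 3, 0.35 without A53T replicate 1 and 0.37 without WT replicate 3. The number of intronic circRNAs with at least 2 reads was 235, 296 and 369 in A53T and 276, 325 and 266 in WT, and the groups overlapped (exact permutation p = 0.8). The difference of 11 turned sign without A53T replicate 3, at -23.5, and without WT replicate 3, at -0.50. Circles of 150 to 200 nt made up 33.5 ± 3.70% of these in A53T and 35.8 ± 1.89% in WT (SD, n = 3 each; exact permutation p = 0.4). Of all 1580, 737 (46.6%) were read in A53T only, 723 (45.8%) in WT only and 120 (7.59%) in both, against 50.2% in both for exonic circRNAs.

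**Figure D4:**
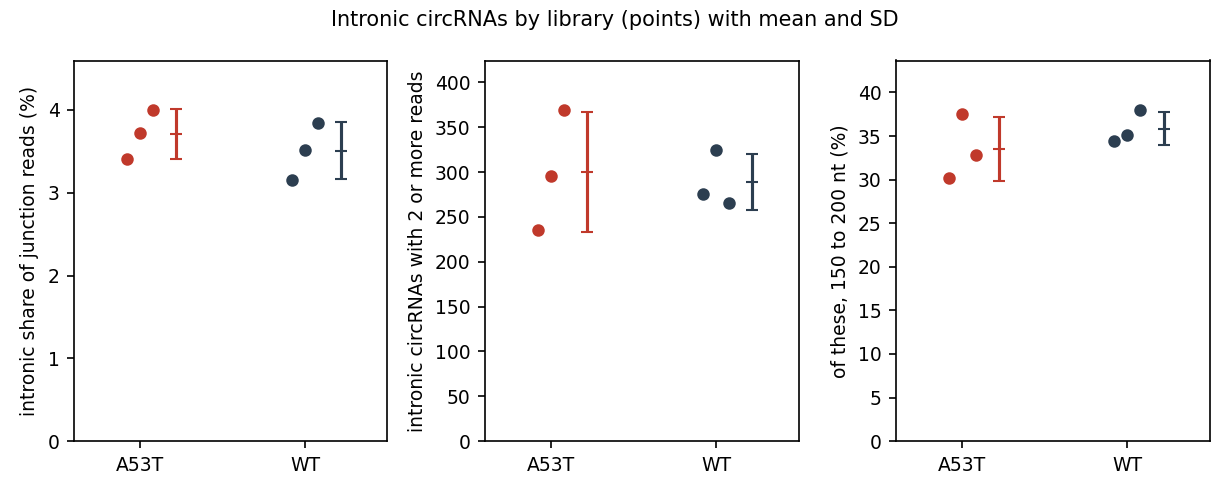
Intronic share of junction reads (left, percent), number of intronic circRNAs with at least 2 reads (middle) and share of 150 to 200 nt among those (right, percent) in each of the 3 A53T and 3 WT libraries (points), with group mean and SD. The groups overlap in all panels.

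Of the 1580 intronic circRNAs, 14 had at least 5 reads in at least 3 libraries and were tested, holding 33.3% of the intronic reads. None of the 14 passed: the smallest adjusted p was 0.993 by edgeR's quasi-likelihood F-test, Benjamini-Hochberg adjusted over all 1214 circRNAs tested, and 0 had an unadjusted p under 0.05. Over all 1214, 0% were called and 4.7% had an unadjusted p under 0.05. DESeq2, limma-voom and the edgeR exact test also gave 0 adjusted and 0 unadjusted intronic calls. Their fold changes were higher in A53T for 10 and lower for 4, with a median log2 fold change of 0.25, against -0.01 over all circRNAs, of which 48.4% were higher. This lean was lost without either of 2 libraries: without A53T replicate 1, 6 were higher and 5 lower with a median of 0.00039, and without A53T replicate 2 it was 4 and 4 with a median of 0.063. It stayed without A53T replicate 3 (9 and 2, median 0.42) and without WT replicate 1 (10 and 2), 2 (9 and 0) or 3 (9 and 3). The filter was applied anew in each refit, so the set of circRNAs tested changed as well. The groups did not overlap for 1 of the 14, against 11.3% of all circRNAs tested. The 95% intervals of all 14 included 0.

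For the Tulp4 circle the level was 7950 ± 1003 CPM in A53T and 6831 ± 128 CPM in WT (SD, n = 3 each). Its log2 fold change was 0.22, with a standard error of 0.16 and a 95% interval of -0.10 to 0.54. This was the narrowest interval of the 14. The 1612 nt Gm21992 circle had 2277 ± 363 CPM in A53T and 1928 ± 353 CPM in WT, a log2 fold change of 0.25 (interval -0.22 to 0.71). The Kazn circle of 888 nt had 719 ± 437 CPM in A53T and 617 ± 118 CPM in WT. Its log2 fold change of 0.22 was 0.67 without A53T replicate 3 and turned sign without A53T replicate 1 or 2. The 1160 nt Kazn circle, with 6, 5 and 6 reads in A53T and 4, 3 and 2 in WT, was the 1 whose groups did not overlap. Its log2 fold change was 0.92 (interval -0.85 to 2.69). It reached the filter only through the A53T libraries, where it was higher, so neither value counts as support for a difference.

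The other tested circRNAs with a higher mean in A53T rested on 24 to 72 reads each. Log2 fold changes were 1.05 for Arhgap5, a GTPase-activating protein gene, 0.98 for Klhl32, 0.78 for Upp2, 0.76 for Cntn5, a contactin gene of neuronal cell adhesion, 0.48 for Crebrf and 0.25 for Erc2. Leaving out 1 library moved Upp2 to between 0.28 (without WT replicate 2) and 1.87 (without WT replicate 1), and Cntn5 to 0.27 without WT replicate 2. The Arhgap5 circle had 5, 10 and 1 reads in A53T and 1, 7 and 0 in WT. The Cntn5 circle (chr9:10168773-10172127, minus strand, 3355 nt), whose acceptor end is that of exon 2 shown above, had 3, 11 and 6 reads in A53T and 2, 1 and 8 in WT. Groups overlapped in both.

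Lower in mean in A53T were the circles of Gm53013 (-0.57), Nrg1 (-0.47), Bcl11b (-0.45) and Gm2164 (-0.27), again without passing. The Gm53013 circle of 4625 nt, which spans the Cdr1os exon, had 0, 10 and 1 reads in A53T and 1, 7 and 8 in WT. The 7456 nt circle of Nrg1, which encodes the growth factor neuregulin 1, had 1, 5 and 3 reads in A53T and 5, 6 and 2 in WT. The Bcl11b circle had 3, 1 and 5 reads in A53T and 7, 5 and 1 in WT. Its exonic neighbour with the same donor end had 31 reads in A53T and 21 in WT. The 30083 nt circle of Gm2164, a gene annotated as antisense, had 5, 6 and 2 reads in A53T and 3, 8 and 5 in WT. Standard errors over the 14 ran from 0.16 to 1.06 on the log2 scale.

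**Figure D5:**
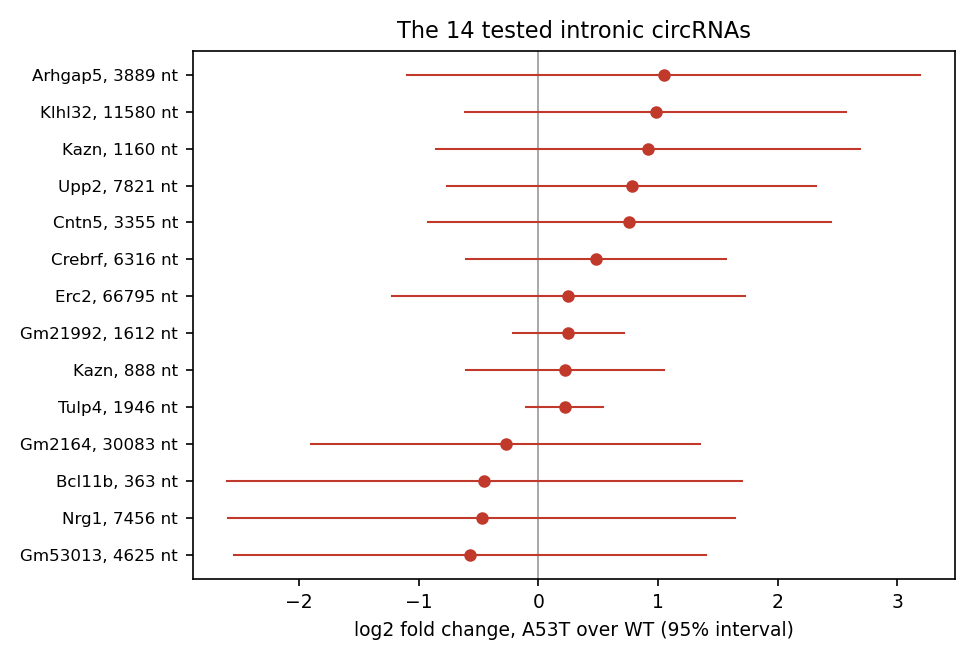
Log2 fold change of A53T over WT (x axis) for the 14 tested intronic circRNAs, named by host gene and predicted length (y axis). Points are edgeR estimates and lines their 95% intervals, all of which include 0.

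A 35591 nt intronic circRNA of Snhg14 was read in A53T libraries only. Snhg14 is an imprinted long non-coding RNA, a host of many small nucleolar RNAs, and runs antisense to Ube3a. The circle (chr7:59335779-59371369, minus strand, mm39, 35591 nt) had 6, 6 and 3 reads in the A53T libraries and 0, 0 and 0 in the WT libraries. With WT set at a floor of 3 reads over the group, the ratio was 5.07. That ratio leaves out the error of the 15 A53T reads and the spread between libraries, so it is no lower bound. The circle was also picked for its 0 reads in WT, so the ratio is no support for a difference. It was the 1 intronic circRNA with at least 10 reads that was confined to a group, 1 of 47, against 1.43% of all 3281 circRNAs with at least 10 reads. It fell under the filter for testing. With no filter it had an unadjusted p of 0.00340 and an adjusted p of 0.469 over 18136 circRNAs in edgeR's quasi-likelihood test, so it did not pass. In that fit 1.18% of all circRNAs had an unadjusted p under 0.05. The other 3 intronic circRNAs of Snhg14 had 2 reads each.

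Intronic reads were also summed over each host gene to gain depth, and the sums of all classes were fitted together. Of 1353 sums tested, 23 were intronic, and 0 of these passed (smallest adjusted p = 0.943, edgeR quasi-likelihood, Benjamini-Hochberg), as was the case for 0% of all sums. An unadjusted p under 0.05 was found for 1 of the 23, against 5.03% of all sums, and 16 of the 23 were higher in A53T, against 48.6% of all. Groups did not overlap for 2 of them, Magi2 and Fgfr2, against 10.8% of all sums, on the CPM scale. The main circle of Fgfr2 used an exon end of Eef1akmt2, so its host is uncertain. Magi2, which encodes a scaffold protein of the postsynaptic density, had 8, 6 and 9 intronic reads in A53T and 2, 2 and 1 in WT. That is 243 ± 46.1 CPM in A53T and 52.0 ± 10.3 CPM in WT (SD, n = 3 each). The log2 fold change was 2.12 (interval 0.14 to 4.11), with an unadjusted p of 0.0367 and an adjusted p of 0.943 in the same edgeR fit, so it did not pass. The unadjusted p was 0.147 in limma-voom, 0.0710 with the replicate number as a block and 0.0510 without WT replicate 1. Magi2 reached the filter only through the A53T libraries, where it was higher, so its fold, p and separation are conditioned on that, and it fell out of the test when any A53T library was left out. These reads came from 6 circles of 515 to 5431 nt, of which the 2160 nt circle had 7, 3 and 2 reads in A53T and 0, 2 and 0 in WT. Magi2 also had 11 exonic circRNAs with 193 reads.

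The sum of Klhl32 was higher in mean in A53T, with 11, 6 and 6 reads in A53T and 4, 8 and 1 in WT, at 0.86 on the log2 scale (standard error 0.77), and Tulp4 stood at 0.18 (standard error 0.14). Those of Gm53013, Nrg1 and Kcnip4 were lower in mean, at -0.70, -0.65 and -0.50. The Gm53013 sum included circles that overlap the Cdr1os exon. The Kcnip4 sum had 3, 2 and 15 reads in A53T and 5, 6 and 15 in WT. The 4 sums of Klhl32, Gm53013, Nrg1 and Kcnip4 overlapped between the groups, and without WT replicate 3 the Kcnip4 value turned sign.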

How the data were processed

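Junction reads were deposited as raw counts per circRNA and library. Per the file headers, the deposited log2 CPM values were made in edgeR. Cutadapt 1.9.3, STAR, edgeR 3.16.5 and mm39 appear in the submitters' processing notes. The circRNA caller, its annotation and any use of strand are not stated in the labels. The deposited log2 values were recomputed to within 0.122 and used for that check only. Predicted length, in nt, is the authors' own. Coordinates are those of the table, 1-based. GENCODE M21 (GRCm38) served for exon numbers and exon sequence, by matching 12739 of 13133 exonic circRNAs to their transcript by length. No coordinates were converted.

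All circRNAs, and host sums per class, were fitted for A53T against WT without covariates where at least 3 libraries had 5 reads. The test was the quasi-likelihood F-test of edgeR 4.0.16 under R 4.3.3, with TMM scaling, robust dispersions and Benjamini-Hochberg adjusted p-values called at 0.05. Standard errors come from the F statistic, and intervals are 95%. Class measures were compared by exact permutation and sign-flip tests. The code was tested on simulated data. Intervals thus reflect the spread between libraries, and only the floors for a count of 0 cover counting error alone, since PCR reads are not independent molecules. Alternatives were DESeq2 1.42.0, limma 3.58.1, other scalings and filters, a replicate block, and leaving out each library. Named circRNAs were the 8 with the most reads, up to 6 tested ones in each direction by p, and the 3 shortest and 3 longest with at least 10 reads. Named hosts were the 5 with the most intronic circRNAs, 3 sums in each direction by p, and up to 4 per list by reads. Circles described for their shared ends, the Snhg14 comparison, Fgfr2 and the single circles of Magi2 were chosen after their values were seen. Members and lists were chosen with earlier results of these data known. Some items are not reported here.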

Additional observations from a re-analysis of the deposited data

How the results depend on the processing

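The count of 0 intronic calls held under all settings run, for circRNAs and for host sums. Of the refits of the 14 tested circRNAs and the 6 named sums, 253 kept direction and side of the threshold and 9 changed sign. Refits in which a circRNA or sum no longer passed the filter are not counted, such as Magi2 without any of the A53T libraries. With no filter, 1 intronic circRNA (Snhg14) had an unadjusted p under 0.05, against 0 with the filter. The unadjusted count of 1 host sum became 0 in limma-voom, with the replicate block, and without WT replicate 1, A53T replicate 1 or A53T replicate 2, 0 of 6 at a minimum of 10 reads, and 7 of 1066 with no filter. Without A53T replicate 3 the 1 sum was that of Tulp4, as Magi2 was no longer tested. Its log2 fold change there was 0.31, with an unadjusted p of 0.0362 and an adjusted p of 0.834 in edgeR's quasi-likelihood test. In limma-voom the 888 nt Kazn circle had -0.039 (log2). The other sign changes came from leaving out 1 library, over which log2 fold changes ran from -0.073 to 0.67 for that Kazn circle, -0.054 to 0.42 for Erc2, -0.11 to 0.88 for Crebrf, -0.58 to 0.093 for Gm2164, -1.08 to 0.00039 for Gm53013 and -1.77 to 0.39 for the Kcnip4 sum. Likewise, the difference in detected circRNAs ran from -23.5 to 43.5. At a minimum of 5 reads, the differences of intronic from exonic circRNAs turned to 1.59 for length and 0.43 for reads (log2). These rested on 14 to 38 intronic circRNAs per library, and the turn in reads rested on the Tulp4 circle. With 1 library left out, 5 pairs cannot go below p = 0.0625 in the exact sign-flip test, and length ran from -1.09 to -1.02, reads from -0.71 to -0.65, and the share read again from -55.3 to -53.9 points. Deviations from the group means were hardly correlated between A53T and WT libraries of the same replicate number (correlations of -0.033, 0.014 and 0.023 over 1214 circRNAs). With counts this low, such values cannot decide whether the libraries were paired. With the replicate block, 0 circRNAs and 0 sums were called. The intronic share was higher in the A53T library of each replicate number. Its difference of 0.20 points had p = 0.25 in the exact sign-flip test, two-sided, the smallest that 3 pairs allow.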
